A study of Mus musculus with 12 samples.

Results

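The genes described here encode 10 C-type lectin receptors of myeloid cells, chosen by name from the 47937 genes counted: Clec4n, Clec4d, Clec4e, Clec4a1, Clec4a2, Clec4a3, Clec5a, Clec7a, Clec10a and Clec12a. Each of the 10 had enough reads to be tested, among 11760 genes that passed the filter on low counts. Their RNA was measured in 12 libraries of C57BL/6 bone marrow-derived macrophages, made by culturing marrow for 7 days in CSF-1 at 20 ng/ml. The 4 groups held 3 libraries each: resting macrophages (M0), macrophages given IFNγ at 50 ng/ml with LPS at 20 ng/ml for 18 h (IFNγ + LPS), resting macrophages given the DGAT1 inhibitor T863 at 50 μM for 18 h (M0 with DGAT1i), and macrophages that received both (IFNγ + LPS with DGAT1i). The labels give no time for M0 and do not say whether replicates came from separate mice, so that p-values measure the spread between these libraries. For 2 of the 3 libraries of M0 with DGAT1i the description carries a compound number other than T863, against their source label, and the calls of the 10 receptors and of 2 further gene lists were also read without them. DGAT1 makes triglycerides from diacylglycerols, and the study used its inhibitor to ask what triglyceride synthesis contributes to inflammatory activation.

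C-type lectin receptors bind sugars, glycolipids and debris of dead cells, and in macrophages they sense fungi and mycobacteria. Activating members, such as Clec7a (Dectin-1, the receptor for β-glucan), Clec4n (Dectin-2, which binds mannans) and Clec4e (Mincle, which binds mycobacterial cord factor), signal through the kinase Syk and the adaptor Card9, either by a motif in their own tail or through the adaptor Fcer1g. Inhibitory members, such as Clec4a2 (DCIR1) and Clec12a (MICL), carry a tail motif that recruits phosphatases.

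Totals ranged from 4996014 to 6621671 reads per library, and 1 CPM (a library-scaled read count, after TMM scaling) was worth 4.28 to 7.58 reads. Macrophage markers were present in every group, with a summed level of 8 genes between 7920 and 18100 CPM. Markers of mast cells and of lymphocytes summed to at most 0.726 CPM in any library. In bulk RNA, fewer cells that express a gene and less RNA per cell cannot be told apart.

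IFNγ + LPS raised 6 of the 10 receptors and lowered 2 against M0. The share of all tested genes that changed in this comparison was 73.3%, of which 37.1% of genes rose and 36.2% fell. With libraries scaled by size alone, 5 receptors rose and 4 fell, beside 2340 and 7002 of all genes. The median log2 fold change was 0.54 over the 10 receptors and 0.01 over all genes. Changes over 2-fold were seen for 5 receptors, against 32.2% of all genes, and the libraries of the 2 groups did not overlap for 8 receptors, against 75.4%. Among the 10, Clec4e and Clec4n rose most. DGAT1i in M0 raised 4 receptors and lowered 2, where 24.4% of all genes changed (11.0% higher and 13.4% lower). DGAT1i in IFNγ + LPS raised 3 and lowered 4, where 29.8% of all genes changed (13.5% higher and 16.3% lower). The response to DGAT1i differed between the 2 states for 5 receptors, 1 with a higher and 4 with a lower response in IFNγ + LPS, and it did so for 18.5% of all genes (8.66% higher and 9.80% lower). A difference over 2-fold was seen for 4 receptors and for 3.30% of all genes. Of the 10, only Clec5a passed no threshold in any of these comparisons.

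**Figure D1:**
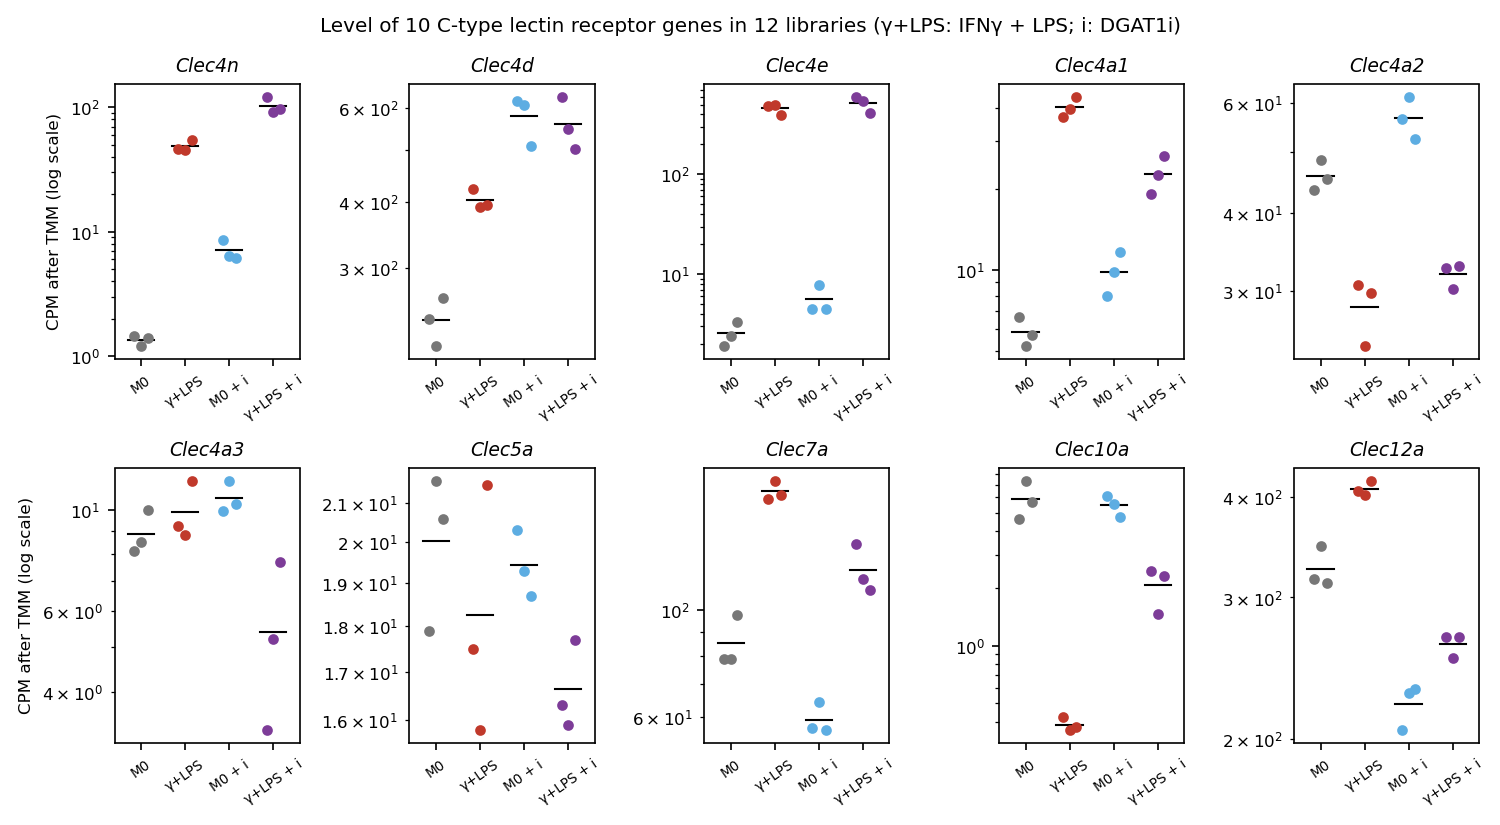
Level of each of the 10 receptor genes in the 12 libraries, in CPM after TMM scaling on a log axis whose range differs between panels. Points are libraries and lines are group means (n = 3). Clec4e and Clec4n sit far higher in both groups with IFNγ + LPS, Clec10a is lowest in IFNγ + LPS alone, and the libraries of Clec5a span only 15.8 to 21.6 CPM.

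The activating receptors of the Dectin-2 family are considered first. Clec4n had 1.45, 1.20 and 1.39 CPM in the M0 libraries and 45.9, 45.5 and 54.1 CPM with IFNγ + LPS. With DGAT1i its levels were 8.63, 6.39 and 6.20 CPM in M0 and 121, 91.8 and 96.2 CPM in IFNγ + LPS. No 2 groups overlapped, and the order from the lowest was M0, M0 with DGAT1i, IFNγ + LPS, and IFNγ + LPS with DGAT1i. The M0 values rested on 9 or 10 reads per library. IFNγ + LPS raised Clec4n 35.6-fold (log2 fold change 5.15 ± 0.19 (SE), n = 3 per group, adjusted p = 2.59e-28). DGAT1i raised it 5.21-fold in M0 (log2 2.38 ± 0.27, adjusted p = 1.23e-09) and 2.13-fold in IFNγ + LPS (log2 1.09 ± 0.09, adjusted p = 4.07e-13). On the log2 scale the increase was smaller in IFNγ + LPS than in M0, by -1.29 ± 0.30 (adjusted p = 0.00143). In CPM the order was reversed, since the mean moved from 1.35 ± 0.133 (SD) to 7.07 ± 1.35 in M0 and from 48.5 ± 4.86 to 103 ± 16.0 in IFNγ + LPS.

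Clec4d, the receptor MCL that pairs with Mincle, was already abundant in M0, at 241, 214 and 264 CPM. It stood at 423, 391 and 395 CPM with IFNγ + LPS, at 618, 609 and 510 CPM in M0 with DGAT1i, and at 630, 549 and 503 CPM with both. The 2 groups with DGAT1i overlapped and lay above the other 2. DGAT1i in M0 gave a 2.41-fold increase (log2 1.27 ± 0.10, adjusted p = 1.97e-06), against a 1.68-fold increase by IFNγ + LPS (log2 0.75 ± 0.10, adjusted p = 3.89e-05). In IFNγ + LPS the increase by DGAT1i was 1.39-fold (log2 0.48 ± 0.10, adjusted p = 0.00425), smaller on the log2 scale than in M0 by -0.79 ± 0.14 (adjusted p = 0.00237). Once DGAT1i was present, adding IFNγ + LPS moved Clec4d by a log2 of -0.04 (95% interval -0.27 to 0.18, adjusted p = 0.708), although scaling by library size alone made this a called decrease of -0.46.

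Clec4e was low in M0, at 1.89, 2.40 and 3.34 CPM, or 13 to 24 reads. With IFNγ + LPS it reached 488, 497 and 396 CPM, and with DGAT1i added 597, 539 and 416 CPM. These 2 groups overlapped. The increase by IFNγ + LPS was 179-fold (log2 7.48 ± 0.28, adjusted p = 7.02e-09) and that in the presence of DGAT1i 92.9-fold (log2 6.54 ± 0.24, adjusted p = 8.1e-09). In IFNγ + LPS, DGAT1i moved Clec4e by 0.17 (95% interval -0.17 to 0.51, adjusted p = 0.448). This value passed the threshold when the replicate number was fitted as a block. In M0 with DGAT1i the levels were 4.52, 7.81 and 4.49 CPM, above every M0 library. The log2 difference of 1.12 ± 0.56 did not pass the threshold (95% interval -0.17 to 2.40, adjusted p = 0.205), and it passed with DESeq2 (adjusted p = 0.00386). It also passed with the replicate number as a block and in the fit of the 6 libraries compared.

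Levels of neutrophil markers moved with part of these results. Their summed level over 10 genes was 63.2 to 81.5 CPM in IFNγ + LPS with DGAT1i, against 15.4 to 26.0 CPM in IFNγ + LPS, 31.7 to 38.8 CPM in M0 and 23.0 to 29.4 CPM in M0 with DGAT1i. All 4 of the markers that could be tested were higher with DGAT1i in IFNγ + LPS, as were 13.5% of all genes. Their log2 fold changes were 2.68 for Ngp, 2.12 for Ltf, 1.92 for S100a8 and 1.70 for S100a9. Mean levels with both treatments were 34.5 CPM for S100a8 and 25.8 CPM for S100a9, above the 7.23 and 10.1 CPM in M0. Ngp and Ltf, at 9.18 and 4.33 CPM, stood near or below their M0 levels of 8.66 and 7.41 CPM. In M0 none of the 4 passed the threshold with DGAT1i, where 24.4% of all genes changed. The defining markers Ly6g and Retnlg had 0 reads in all libraries. The part of these cells in the levels of Clec4n, Clec4d and Clec10a in IFNγ + LPS with DGAT1i was not tested.

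Among the DCIR group, Clec4a1 (DCIR4) changed in opposite directions with DGAT1i in the 2 states. It had 6.68, 5.19 and 5.71 CPM in M0 and 7.97, 9.80 and 11.6 CPM in M0 with DGAT1i. In IFNγ + LPS its levels were 36.8, 39.6 and 43.8 CPM, and with DGAT1i 19.1, 22.5 and 26.4 CPM. The 4 groups did not overlap. IFNγ + LPS raised it 6.85-fold (log2 2.78 ± 0.14, adjusted p = 3.21e-25). DGAT1i raised it 1.67-fold in M0 (log2 0.74 ± 0.17, adjusted p = 0.000739) and lowered it 1.78-fold in IFNγ + LPS (log2 -0.83 ± 0.12, adjusted p = 1.19e-07). The difference between the responses was -1.57 ± 0.21 (adjusted p = 7.1e-08). Without the 2 libraries whose compound number differs, the increase in M0 was 0.43 and did not pass the threshold (adjusted p = 0.291), while the difference between the responses did (-1.24, adjusted p = 0.00103).

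Clec4a2, the inhibitory receptor of the group, followed the opposite course under IFNγ + LPS. It fell from 43.6, 48.7 and 45.3 CPM in M0 to 30.7, 24.5 and 29.8 CPM, a 1.63-fold decrease (log2 -0.70 ± 0.10, adjusted p = 3.26e-09). With DGAT1i in M0 it had 56.5, 61.3 and 52.5 CPM, a 1.24-fold increase with no overlap (log2 0.31 ± 0.08, adjusted p = 0.00281). This call was lost without the 2 libraries of differing compound number (log2 0.28, adjusted p = 0.105). In IFNγ + LPS with DGAT1i it had 32.7, 30.2 and 32.9 CPM, which overlapped with IFNγ + LPS (log2 0.18, 95% interval -0.04 to 0.39, adjusted p = 0.223). As 17.6% of its longest transcript is shared with Clec4b1 at 95% identity or more, reads of the 2 genes may have been divided between them.

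Clec4a3 (DCIR3) was low in all groups. Its levels were 8.14, 8.52 and 10.0 CPM in M0, 9.26, 8.82 and 11.6 CPM in IFNγ + LPS, 9.96, 11.6 and 10.3 CPM in M0 with DGAT1i, and 3.29, 5.22 and 7.71 CPM with both treatments. The last group, of 16 to 33 reads per library, lay below the others, which overlapped with each other. Only in IFNγ + LPS did DGAT1i pass the threshold, with a 1.86-fold decrease (log2 -0.89 ± 0.22, adjusted p = 0.00132), and the response there differed from that in M0 by -1.15 ± 0.28 (adjusted p = 0.00176).

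Clec7a and Clec12a, which lie near each other on the chromosome, were both lowered by DGAT1i in both states. Clec7a had 78.9, 79.1 and 97.3 CPM in M0 and 170, 185 and 173 CPM in IFNγ + LPS. With DGAT1i it had 56.9, 64.2 and 56.2 CPM in M0 and 137, 116 and 110 CPM in IFNγ + LPS. No groups overlapped. IFNγ + LPS raised Clec7a 2.07-fold without DGAT1i (log2 1.05 ± 0.08, adjusted p = 3.67e-13) and 2.05-fold with it (log2 1.04 ± 0.09, adjusted p = 4.55e-12). The decrease by DGAT1i was 1.44-fold in M0 (log2 -0.53 ± 0.08, adjusted p = 1.39e-05) and 1.45-fold in IFNγ + LPS (log2 -0.54 ± 0.08, adjusted p = 3.08e-06). The 2 responses differed by -0.01, with a 95% interval of -0.25 to 0.23 (adjusted p = 0.964).

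Clec12a had 316, 348 and 313 CPM in M0 and 205, 228 and 231 CPM in M0 with DGAT1i. In IFNγ + LPS it had 407, 403 and 419 CPM, and with DGAT1i 268, 252 and 268 CPM. Both groups with DGAT1i lay below both groups without it. The decrease was 1.47-fold in M0 (log2 -0.56 ± 0.05, adjusted p = 1.83e-12) and 1.56-fold in IFNγ + LPS (log2 -0.64 ± 0.06, adjusted p = 4.49e-14), with a difference of -0.08 (95% interval -0.24 to 0.07, adjusted p = 0.512). The increase by IFNγ + LPS was 1.26-fold (log2 0.33 ± 0.05, adjusted p = 2.28e-07), and it turned into a decrease of -0.14 when libraries were scaled by size alone, a scaling that moved the median of all genes to -0.46.

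The summed level of 5 monocyte markers was also lower with DGAT1i. It was 75.9 to 78.8 CPM in M0 and 23.3 to 32.1 CPM with DGAT1i, and 113 to 136 CPM in IFNγ + LPS and 68.8 to 89.4 CPM with DGAT1i. All 5 were tested, and none had 0 reads in a whole group. DGAT1i lowered 2 of them in M0 and 1 in IFNγ + LPS, beside 13.4% and 16.3% of all genes, and raised none. The other 3 in M0 and 4 in IFNγ + LPS did not pass the threshold. The part of such cells in the levels of Clec7a and Clec12a was not tested.

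Clec10a (MGL1, which binds galactose and N-acetylgalactosamine and marks alternatively activated macrophages) was the receptor that IFNγ + LPS lowered most among the 10. It had 4.65, 7.32 and 5.71 CPM in M0, and 2 reads in each library of IFNγ + LPS, or 0.421, 0.360 and 0.375 CPM. With DGAT1i it had 6.11, 5.54 and 4.75 CPM in M0 and 2.47, 1.46 and 2.33 CPM in IFNγ + LPS, the latter from 7 to 12 reads. M0 with and without DGAT1i overlapped, and the other groups stood apart. The decrease by IFNγ + LPS was 14.7-fold (log2 -3.88 ± 0.41, adjusted p = 2.17e-12), and the reads of the 2 groups gave a ratio of 15.5 with an exact 95% counting interval of 6.91 to 42.9. DGAT1i raised Clec10a 5.20-fold in IFNγ + LPS (log2 2.38 ± 0.56, adjusted p = 0.00064) and moved it by -0.12 in M0 (95% interval -0.54 to 0.30, adjusted p = 0.75). These responses differed by 2.50 ± 0.60 (adjusted p = 0.00149). Even with DGAT1i the level in IFNγ + LPS remained 2.61-fold below that in M0 with DGAT1i (adjusted p = 3.94e-05). Since 31.3% of its longest transcript is shared with Mgl2, a closely related gene, at 95% identity or more, reads may have been divided. Mgl2 had 3 to 20 reads per group, and a division of reads was not tested.

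Clec5a (MDL-1, which signals through the adaptor Tyrobp) changed least. It ranged from 17.9 to 21.6 CPM in M0, from 15.8 to 21.5 CPM in IFNγ + LPS, from 18.7 to 20.3 CPM in M0 with DGAT1i and from 15.9 to 17.7 CPM with both. The interval of its log2 response to IFNγ + LPS was -0.38 to 0.11, and those to DGAT1i were -0.27 to 0.18 in M0 and -0.42 to 0.14 in IFNγ + LPS. Under scaling by library size alone, IFNγ + LPS lowered it by -0.60 (adjusted p = 2.11e-05).

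**Figure D2:**
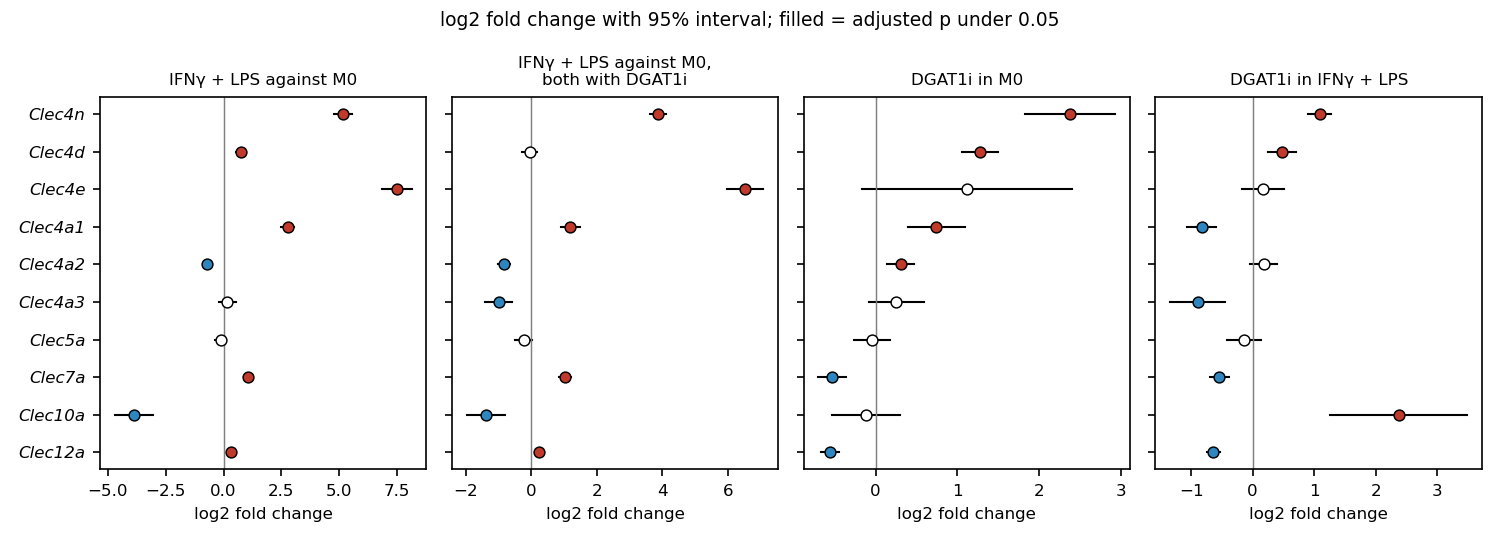
The log2 fold change of each receptor gene in 4 comparisons, with its 95% interval from edgeR's quasi-likelihood fit; the horizontal scale differs between panels. Red points rose and blue points fell with an adjusted p under 0.05, and open points did not pass. The increases of Clec4e (7.48) and Clec4n (5.15) by IFNγ + LPS stand far from the rest, and Clec10a (-3.88) is the lowest.

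The comparisons of DGAT1i in M0 and in IFNγ + LPS share no library, whereas each shares a group with the comparison of IFNγ + LPS against M0. Of the 10 members, 5 passed the threshold for DGAT1i in both states, as did 9.79% of all genes, and 4 went the same way, as did 7.44% of all genes: Clec4n and Clec4d rose, and Clec7a and Clec12a fell. Clec4a1 was the exception. Clec4a2 passed only in M0, and Clec4a3 and Clec10a only in IFNγ + LPS, but the difference between the states was past the threshold for Clec4a3 and Clec10a alone of these 3. The libraries of the groups compared did not overlap for 7 of the 10 members for DGAT1i in M0 and for 7 in IFNγ + LPS, against 37.8% and 39.7% of all genes. Changes by DGAT1i that were over 2-fold and past the threshold were those of Clec4n and Clec4d in M0 (Clec4e, at 2.17-fold, did not pass) and of Clec4n and Clec10a in IFNγ + LPS, against 3.16% and 3.68% of all genes. In the presence of DGAT1i, IFNγ + LPS raised 5 members and lowered 3, where 70.6% of all genes changed (35.3% higher and 35.3% lower). Scaled by library size alone, 4 rose and 6 fell, beside 2333 and 6799 of all genes. Of the 8, 5 changed over 2-fold, against 29.2% of all genes. The libraries of 9 of the 10 members did not overlap, against 72.5% of all genes.

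**Figure D3:**
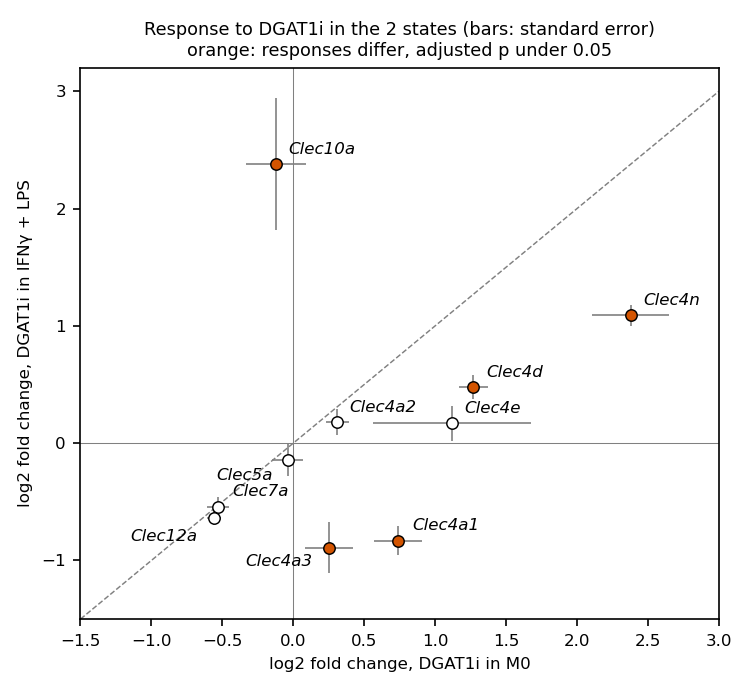
Log2 fold change by DGAT1i in IFNγ + LPS (vertical) against that in M0 (horizontal), with standard errors; the dashed line marks equal responses. Orange points, Clec4n, Clec4d, Clec4a1, Clec4a3 and Clec10a, differ between the states with an adjusted p under 0.05. Clec7a and Clec12a lie near the line at about equal decreases.

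Levels of different genes were compared as RPKM, which divides by the length of the exons. In every group Clec4d had the largest share of the summed RPKM of the 10 genes: 54.2% ± 2.88 (SD, n = 3) in M0, 76.7% ± 1.97 in M0 with DGAT1i, 44.4% ± 1.20 in IFNγ + LPS and 53.5% ± 0.553 with both. Clec12a came second in M0, at 21.4% ± 2.39, and stood at 7.30% ± 0.766 in IFNγ + LPS with DGAT1i. Clec4e held 0.184% ± 0.0440 of the sum in M0 and 16.3% ± 1.83 in IFNγ + LPS. The sum itself was 276 ± 16.6 RPKM in M0, 471 ± 38.4 in M0 with DGAT1i, 568 ± 10.4 in IFNγ + LPS and 655 ± 69.3 with both. The choice of length moves these shares, as with the longest transcript Clec12a had 28.2% and Clec4d 50.6% in M0.

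Ratios of 2 receptors within a library do not depend on how libraries are scaled. The ratio of Clec4n to Clec7a, the mannan to the β-glucan receptor, was on average 0.0296 in M0, 0.224 in M0 with DGAT1i, 0.514 in IFNγ + LPS and 1.58 with both, with no overlap between groups. Only in the last group was it above 1, from 1.48 to 1.65. The ratio of Clec4d to Clec7a was 4.66 in M0 and 16.2 when M0 had received DGAT1i, and it was 3.79 in IFNγ + LPS and 7.67 with both. That of Clec7a to Clec12a was 0.551 in M0 and 0.561 when DGAT1i was added, and 0.900 and 0.963 in IFNγ + LPS without and with DGAT1i, and the libraries with and without DGAT1i overlapped in each state.

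**Figure D4:**
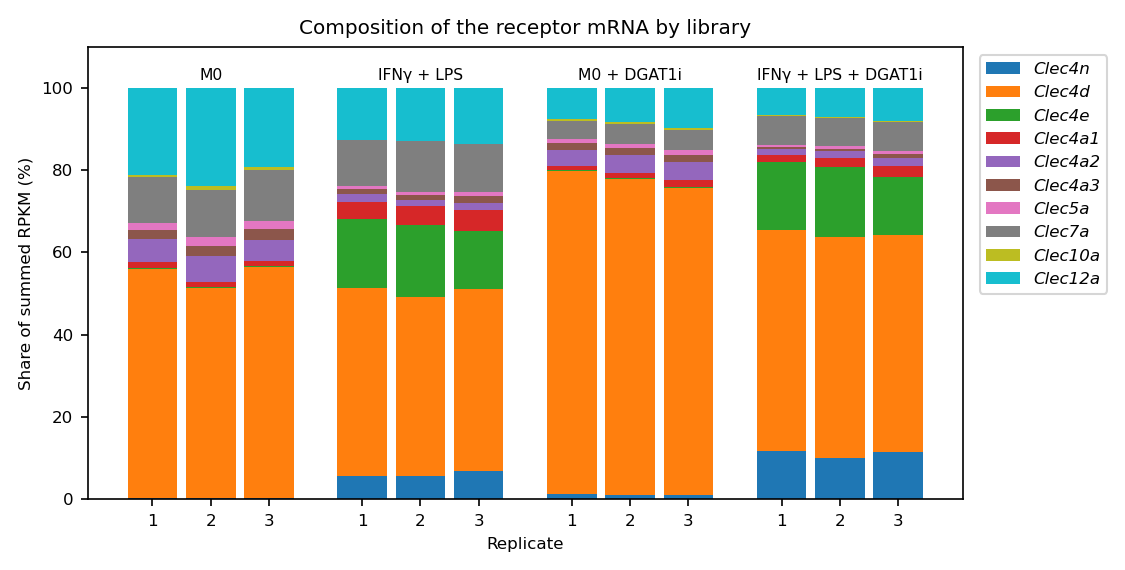
Share of each receptor gene in the summed RPKM of the 10, in percent, for each of the 12 libraries by group. Clec4d takes the largest share in each library, most in M0 with DGAT1i (74.7 to 78.6%), and Clec4e and Clec4n appear as visible shares in the 2 groups with IFNγ + LPS.

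Of the 10 genes, 9 lie on chromosome 6, by GENCODE M21 on GRCm38. Of these, 6 are in one stretch of 368 kb with 9 genes of this family, in the order Clec4a1 (chr6:122921848-122934619), Clec4a3 (chr6:122952515-122969875), Clec4a2 (chr6:123106428-123143999), Clec4n (chr6:123229843-123247021), Clec4d (chr6:123262111-123275265) and Clec4e (chr6:123281789-123289870), the last on the minus strand and the others on the plus strand. Clec4a4 and Clec4b2 between them had 6 and 4 reads in all 12 libraries. Clec4b1, between Clec4a3 and Clec4a2, fell with IFNγ + LPS by 2.72 on the log2 scale (adjusted p = 1.15e-09), while Clec4a1 rose by 2.78 and Clec4n, Clec4d and Clec4e by 5.15, 0.75 and 7.48. Neighbours thus spanned both directions, and the 3 genes at the Clec4e end had the 3 highest log2 fold changes by DGAT1i in M0 of the 7 tested there (2.38, 1.27 and 1.12, the last not past the threshold).

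**Figure D5:**
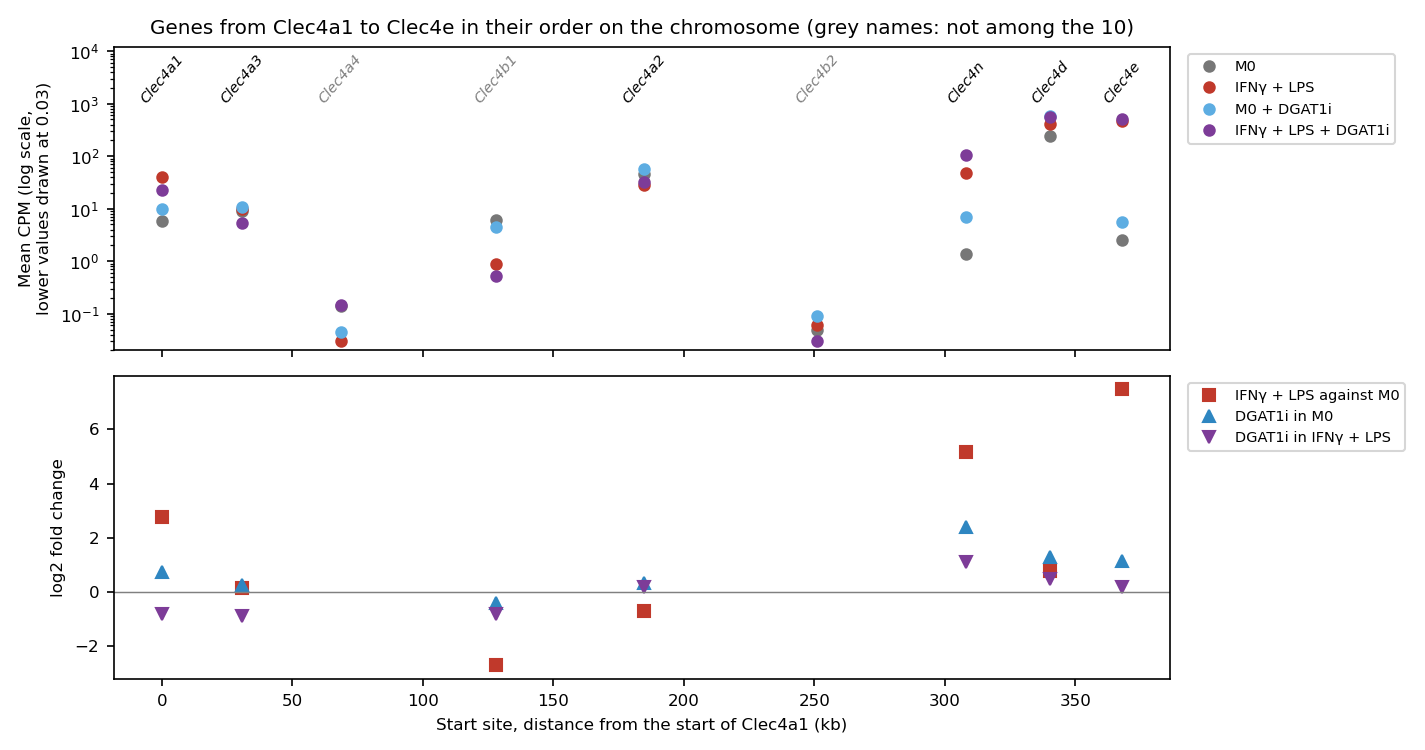
The 9 genes from Clec4a1 to Clec4e by the distance of their start site from that of Clec4a1 in kb, with mean CPM in the 4 groups (above, log axis, values under 0.03 drawn at 0.03) and log2 fold changes of the 7 tested genes (below). Clec4n and Clec4e, on either side of Clec4d, show the largest increases by IFNγ + LPS of the 7.

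Clec12a (chr6:129342691-129365303, plus strand) and Clec7a (chr6:129461591-129472779, minus strand) bound a second stretch of 130 kb with 6 genes of the family. Only Clec9a between them was tested, a dendritic cell receptor for dead cells, and it had 1 read in M0 and 127 in IFNγ + LPS, a ratio of 175 with an exact 95% counting interval of 30.9 to 6970. DGAT1i lowered Clec9a in IFNγ + LPS (log2 -1.73, adjusted p = 3.52e-06). Dendritic cell markers, 8 genes of which 3 were tested, summed to 1.60 to 2.18 CPM in M0, 0.93 to 1.85 CPM in M0 with DGAT1i, 12.4 to 14.8 CPM in IFNγ + LPS and 7.2 to 13.3 CPM with both. Of the 3, Xcr1 and Ccr7 had 1 and 0 reads in M0. Ccr7 passed the filter through the stimulated groups, and Xcr1 through IFNγ + LPS alone. Xcr1 had 28 to 30 reads per library there, against 2 to 5 with DGAT1i added. DGAT1i in IFNγ + LPS lowered 1 of the 3, Xcr1, where it lowered 16.3% of all genes. As Xcr1 passed the filter only through the group where it is high, this count is not a result about the list. The part of such cells in the level of Clec9a was not tested. Clec5a lies apart on the same chromosome (chr6:40574894-40585821, minus strand), and Clec10a on chromosome 11 (chr11:70156197-70170834, plus strand). No member shared exon bases with another annotated gene.

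Promoters, taken from RefSeq on GRCm38.p6 as 250 bases before and 50 after a gene's start, were found for 8 of the 10 members. Those of the most abundant receptor, of the one that IFNγ + LPS raised most, and of the pair that DGAT1i lowered in both states are shown 5′ to 3′ on the gene's strand. Capitals mark matches to a motif. The windows are chr6:123261857-123262156 for Clec4d (plus), chr6:123289822-123290121 for Clec4e (minus), chr6:129472730-129473029 for Clec7a (minus) and chr6:129349994-129350293 for Clec12a (plus), the last inside the GENCODE gene.
Clec4d: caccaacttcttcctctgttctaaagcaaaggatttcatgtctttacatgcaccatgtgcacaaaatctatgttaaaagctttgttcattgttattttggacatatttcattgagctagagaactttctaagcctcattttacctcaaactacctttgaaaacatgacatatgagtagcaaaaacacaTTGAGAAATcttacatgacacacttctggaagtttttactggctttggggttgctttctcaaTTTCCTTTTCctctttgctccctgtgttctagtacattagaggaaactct
Clec4e: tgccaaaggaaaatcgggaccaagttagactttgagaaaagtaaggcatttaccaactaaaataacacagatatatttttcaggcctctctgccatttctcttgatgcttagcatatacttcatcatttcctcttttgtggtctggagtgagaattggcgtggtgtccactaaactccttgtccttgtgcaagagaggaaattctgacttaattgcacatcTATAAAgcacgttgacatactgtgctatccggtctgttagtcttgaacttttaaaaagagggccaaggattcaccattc
Clec7a: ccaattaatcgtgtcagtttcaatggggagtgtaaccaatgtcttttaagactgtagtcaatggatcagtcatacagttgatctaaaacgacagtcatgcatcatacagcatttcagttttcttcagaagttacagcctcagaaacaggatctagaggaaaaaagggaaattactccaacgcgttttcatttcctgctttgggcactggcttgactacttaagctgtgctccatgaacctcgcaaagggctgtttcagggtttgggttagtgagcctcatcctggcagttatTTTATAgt
Clec12a: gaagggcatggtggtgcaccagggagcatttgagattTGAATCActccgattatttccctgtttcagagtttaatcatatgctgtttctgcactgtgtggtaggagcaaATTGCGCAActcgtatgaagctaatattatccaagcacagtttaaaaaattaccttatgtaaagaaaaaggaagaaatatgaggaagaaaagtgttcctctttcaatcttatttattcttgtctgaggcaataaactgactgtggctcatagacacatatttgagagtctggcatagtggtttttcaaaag

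Both strands were searched for 8 motifs. The motif of C/EBP factors was TTNNGNAAT, that of AP-1 factors was TGANTCA and that of the TATA-binding protein, the TATA box, was TATAAA. The ISRE, bound by interferon regulatory factors, was read as GAAA followed by any 2 bases and GAAA again. NF-kB, GAS, PU.1 and the antioxidant response element were searched under their usual letters, TTCNNNGAA for GAS, GAGGAAGT for PU.1 and TGACNNNGC for the last. Clec4d held a C/EBP match at -62 to -54 from its start and an ISRE match on the minus strand at 1 to 10. Clec4e held a TATA box at -29 to -24. Clec12a held a C/EBP match on the minus strand at -141 to -133 and an AP-1 match at -213 to -207. Clec7a held a TATA box match on the minus strand at 43 to 48. A further window of Clec7a from another start (chr6:129472736-129473035, not printed) held no match. Of 32851 promoters of this length, 11.5% held the C/EBP motif, 3.44% the ISRE, 7.81% AP-1, 13.6% the TATA box and 8.46% NF-kB. No motif was shared by the printed windows of Clec7a and Clec12a, and none of the member windows held the NF-kB letters.

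The signalling genes behind these receptors were read from a list of 28, all tested. IFNγ + LPS raised 16 and lowered 5, beside 37.1% and 36.2% of all genes. DGAT1i changed 5 in M0 (2 higher and 3 lower), where 24.4% of all genes changed, and 13 in IFNγ + LPS (5 higher and 8 lower), where 29.8% did. Without the 2 libraries of differing compound number, 4 of the 5 calls in M0 were lost, among them Fcer1g (log2 -0.19, adjusted p = 0.0957) and Syk (log2 0.18, adjusted p = 0.109). The difference between the responses passed for 11 of the 28 (3 higher and 8 lower), where 18.5% of all genes passed, and 3 of these 11 calls were lost without the 2 libraries. Of the adaptors, Fcer1g, the chain that carries the signal of Clec4n, Clec4d and Clec4e, rose with IFNγ + LPS (log2 1.11 ± 0.05, adjusted p = 2.89e-26) and fell slightly with DGAT1i in IFNγ + LPS (log2 -0.17 ± 0.05, adjusted p = 0.00879) and in M0 (log2 -0.15 ± 0.05, adjusted p = 0.0343). Tyrobp, the partner of Clec5a, fell with IFNγ + LPS (log2 -0.58 ± 0.06, adjusted p = 3.65e-11), and DGAT1i gave 0.07 in M0 and 0.06 in IFNγ + LPS, not past the threshold. The related adaptor Hcst passed in none of these comparisons, with values between -0.26 and 0.41.

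Syk, the kinase downstream of the activating receptors, rose with IFNγ + LPS (log2 1.36 ± 0.05, adjusted p = 3.07e-31) and with DGAT1i in M0 (log2 0.23 ± 0.05, adjusted p = 0.000444), and the response to DGAT1i was lower in IFNγ + LPS by -0.33 ± 0.07 (adjusted p = 0.000452). RNA for the 3 proteins of the complex that Syk activates rose with IFNγ + LPS: Card9 by 0.33, Bcl10 by 0.46 and the protease Malt1 by 2.32. The first 2 of these values are no larger than the shift of the median of all genes under scaling by library size alone (-0.46). For these 3, DGAT1i gave log2 values between -0.16 and 0.06, none past the threshold. Among the list's largest changes by DGAT1i in IFNγ + LPS, the tetraspanin Cd81 (0.82) and the kinase Src (0.73) rose, and the phospholipase Plcg2 (-0.64) and the kinase Lyn (-0.56) fell. With IFNγ + LPS alone the kinases Src (3.12) and Fgr (2.57) rose beside Malt1. In M0 with DGAT1i the largest change was that of the phosphatase Ptpn6, which fell by 0.29.

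Of 41 other C-type lectin genes, 16 were tested. IFNγ + LPS raised 10 and lowered 6, where 73.3% of all genes changed. Among the 10, Klrk1, Clec9a, Cd69, Ly75 and Olr1 had 0 to 11 reads in M0 and 30 to 4442 in IFNγ + LPS, so that they passed the filter through the stimulated groups, which fixes their direction, and the count is not a result about the list. Cd69, an early activation marker, went from 5 reads in M0 to 4442 in IFNγ + LPS (ratio 1230, exact 95% counting interval 525 to 3780), and Klrk1, the receptor NKG2D, from 0 reads to 350, at least 161-fold higher when M0 is set to 3 reads in all. Mrc1, the mannose receptor, fell by 5.31 (adjusted p = 6.78e-19), from 1500 ± 167 to 37.7 ± 2.49 CPM (SD, n = 3). DGAT1i in IFNγ + LPS raised 3 of the 16 and lowered 6, where 29.8% of all genes changed, and the largest changes were Clec2i at 1.76, Clec9a at -1.73, Klrk1 at -1.64 and Pla2r1 at -0.98. In M0 DGAT1i raised 3 and lowered 1, where 24.4% of all genes changed, namely Klra2 (0.88), Clec2d (0.60) and Colec12 (0.30) against Mrc1 (-0.40). Without the 2 libraries of differing compound number, only Clec2d of these 4 passed the threshold (0.61, adjusted p = 1.72e-08), while Klra2 stood at 0.86, Mrc1 at -0.38 and Colec12 at 0.08.

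For each receptor, the gene whose log2 CPM ran most like its own over the 12 libraries was read out, among genes whose log2 CPM averaged 2 or more. These were Nampt for Clec4e (Pearson r = 0.998), Lrrfip2 for Clec4n (r = 0.997), Maoa for Clec4a2 (r = 0.989), Cpt1a for Clec4a1 (r = 0.988) and Ckap4 for Clec10a (r = 0.988). Rnf128 was nearest to Clec4d (r = 0.984), Mcmbp to Clec7a (r = 0.982), Tpm3 to Clec12a (r = 0.967), Det1 to Clec4a3 (r = 0.936) and Tysnd1 to Clec5a (r = 0.877). The 12 points share their libraries and scaling and fall into 4 groups, so that these values describe the order of the group means more than the spread within them.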

How the data were processed

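Counts of reads per gene, not normalized, were deposited by the authors for 12 libraries of 4 groups. The submitters' processing notes name GRCm38 and DESeq2; which aligner and counter were used is not given in the sources used here. The kit is named differently in the labels (NEBNext) and in the study's methods (TruSeq stranded), so that strandedness is not known. Of 47937 identifiers, 47310 matched GENCODE M21 without their version.

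Counts were analysed with edgeR 4.0.16 in R 4.3.3: filterByExpr (11760 genes), TMM, 1 mean per group over all libraries, robust quasi-likelihood tests, Benjamini-Hochberg adjustment over all genes and a threshold of 0.05. Each SE is the log2 fold change over the square root of F, and intervals use the quantile of the test's own degrees of freedom. RPKM was computed from TMM-scaled CPM and merged exon length. The procedure was tested on simulated data.

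Alternatives were DESeq2 1.42.0, RLE or library-size scaling, no filter, a mean CPM of 1, a 2-fold limit, fits of the 6 libraries compared, the replicate number as a block and leaving out each library. The length of the longest transcript, and leaving out both libraries of differing compound number, were added after seeing the data. Copies were searched with BLAST 2.17.0. Members and lists were chosen with earlier results of these data known. All 10 members are named; lists are given by counts with at most 4 of the largest changes, their main adaptors, and the nearest pattern per member. Depth, 4996014 to 6621671 reads, limits Clec10a, Clec4n and Clec4e where they had few reads, and counting intervals cover counting error only. Replicates correlated at 0.988 to 0.992, and none was a copy of another.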

Additional observations from a re-analysis of the deposited data

Results flagged for a closer look

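The response to DGAT1i differed between IFNγ + LPS and M0, by the test of the difference itself, for 5 of the 10 receptors. The difference, as the log2 fold change in IFNγ + LPS minus that in M0, was -1.29 for Clec4n (adjusted p = 0.00143), -0.79 for Clec4d (adjusted p = 0.00237), -1.57 for Clec4a1 (adjusted p = 7.1e-08), -1.15 for Clec4a3 (adjusted p = 0.00176) and 2.50 for Clec10a (adjusted p = 0.00149). Across all genes, 8.66% had a higher and 9.80% a lower response in IFNγ + LPS. All 5 kept an adjusted p under 0.05 in the alternative fits that give this difference, which the fits of 6 libraries do not. With a 2-fold limit added, Clec4d did not pass.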

How the results depend on the processing

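The number of receptors changed was 8 for IFNγ + LPS, 8 for IFNγ + LPS in the presence of DGAT1i, 6 for DGAT1i in M0, 7 for DGAT1i in IFNγ + LPS and 5 for the difference, and it was the same when any 1 library was left out. Asking also for a change over 2-fold left 5, 5, 2 and 2 for the first 4, and over all genes 3782, 3436, 372 and 433, with 388 for the difference. With 1 library of M0 with DGAT1i, whose spread is assumed to be that of the other groups, 1661 genes changed with DGAT1i in M0 and 1420 in the difference, fewer samples being fitted, and Clec4a1 and Clec4a2 lost their call in M0. That fit also turned the sign of results that were not past the threshold: Clec10a (0.0269) and Clec5a (0.0015) for DGAT1i in M0, and Clec12a (0.0655) and Clec7a (0.0798) for the difference. Scaling by library size alone reversed Clec12a for IFNγ + LPS (-0.14 without and -0.17 with DGAT1i), Clec4a3 for IFNγ + LPS (-0.31) and the difference of Clec7a (0.0373), which was also above 0 with RLE (0.0039) and DESeq2 (0.0027). Leaving out 1 library turned only values not past the threshold: Clec10a and Clec5a for DGAT1i in M0 ranged from -0.26 to 0.0732 and from -0.12 to 0.0135, Clec4d for IFNγ + LPS in the presence of DGAT1i from -0.13 to 0.028, and the differences of Clec5a and Clec7a from -0.20 to 0.0377 and from -0.12 to 0.0474. Under library size alone 885 genes rose and 2092 fell with DGAT1i in M0, against 1298 and 1571, and the difference was higher for 1229 and lower for 882, against 1019 and 1152. The cause of the other shifts was not tested.

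Deviations of same-numbered libraries correlated between -0.10 and 0.12 over 7375 genes. Libraries with both treatments gave 0.05 to 0.12 with those of the same number in IFNγ + LPS. With M0 with DGAT1i they gave 0.05 to 0.07, against -0.05 to -0.01 for differing numbers. These values are small but not all around 0, so that the check does not decide whether the numbers pair the libraries. With the replicate block, Clec4e passed for DGAT1i in M0 (1.12, adjusted p = 0.00052), in IFNγ + LPS (0.16, adjusted p = 0.0379) and for the difference (-0.96, adjusted p = 0.00539), and no other receptor's call moved. Clec4e in M0 with DGAT1i also passed in the fit of 6 libraries (adjusted p = 0.00106).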
